A study of Rattus norvegicus with 6 samples.

Results

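Synovial fibroblast-like cells (RASFLs) are cultured from the lining of joints. They were compared after days of culture with serum of mechanically stimulated animals (MS+) and with serum of untreated animals (MS-). The cells came from female Wistar rats with collagen-induced arthritis, are numbered RA1 and RA2 in the labels and are taken here as those of 2 rats, and the cells of each were divided over both sera and over fetal bovine serum (FBS). MS+ serum was drawn at day 18 from animals stimulated with needles on both sides, at the lower back and at the leg between tibia and fibula. The labels call this acupuncture (AP). Of the 6 libraries of the series, 4 entered the comparison, 2 for MS+ and 2 for MS-, with replicate 1 from rat 1 and replicate 2 from rat 2. The number of animals behind each serum was not stated, so the replicate is the rat that gave the cells. The fit takes out the level of each rat. Its p-values therefore measure how far differences between sera vary between the cells of 2 rats, over all 6 libraries, and not the spread between serum donors. The labels of MS- are at odds, since 1 field calls the rats healthy and other fields name arthritis. The study describes this serum both as taken ahead of therapy and as taken in untreated arthritic animals. If it was taken ahead of therapy, the sera differ in the time of the draw as well as in stimulation. Stimulation, time of draw and stage of disease then cannot be told apart in the differences below. All transcript rows that reached 1 CPM (reads per library, scaled to a common total) in both libraries of a group were used, 9820 of 17221. A row was called when limma, fitted with the rat as a block, gave a Benjamini-Hochberg adjusted p under 0.05. Fold changes were taken from log2(CPM + 1), a scale on which a weakly expressed gene seems to change less than it does, and pairs of values below are given for rat 1 and then rat 2. A single value in brackets after a gene is its log2 fold change, and a value in brackets after genes that lost their call is their highest adjusted p in that fit.

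Fibroblast-like synoviocytes build the lining of the joint. They lay down and degrade its matrix, they make the lubricating fluid, and in arthritis they multiply and release proteases, prostanoids and chemokines. Serum acts on such cells in culture through growth factors, hormones and lipids, which set off a short wave of immediate early transcription factors, and later entry into the cell cycle. In these libraries the collagens Col1a1, Col1a2 and Col3a1, Vim, Thy1, Pdgfrb and Cdh11 were all high, from 374 CPM upward. The markers Fap, Prg4, Lum and Dcn were low, between 0 and 9.19 CPM, with Dcn at 0 in 4 of 6 libraries, although they are usual markers of synovial fibroblasts. Acan (1452 to 3012 CPM), Cspg4 (1681 to 2270 CPM), Myh11 (625 to 1056 CPM) and Acta1 (766 to 1199.9 CPM), which mark cartilage, pericytes or muscle elsewhere, were high, while Col2a1, Myog, Des, Rgs5 and Pax7 stayed between 0 and 2.13 CPM. Macrophage markers summed to 13.8 to 20.9 CPM, with 8 of 13 at 0 in all libraries, among them Ptprc, Itgam and Cd163. Endothelial, lymphocyte, red cell, neutrophil, adipocyte and epithelial markers summed to at most 3.49 CPM each.

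A total of 987 rows were called, which is 10.1% of the rows tested. Of these, 518 (5.27%) were higher and 469 (4.78%) were lower in MS+. The changes were mostly small, with a median size of 0.576 on the log2 scale, and 506 of the 987 were under 1.5-fold. A fit paired by rat favours rows that move alike in both rats, so agreement between the rats is no separate support for a call. In 910 of the 987 the values of MS+ and MS- did not overlap, which among all rows held for 22.6% with MS+ higher and 23.1% with MS+ lower. The study's rule (unadjusted p under 0.05, a change of at least 2-fold and a mean of at least 1 CPM) called 136 rows (1.38%), 90 higher (0.916%) and 46 lower (0.468%), and 131 of them were among the 987. With limma-voom, which the study's methods name, the same rule called 274 rows, 168 higher and 106 lower.

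**Figure D1:**
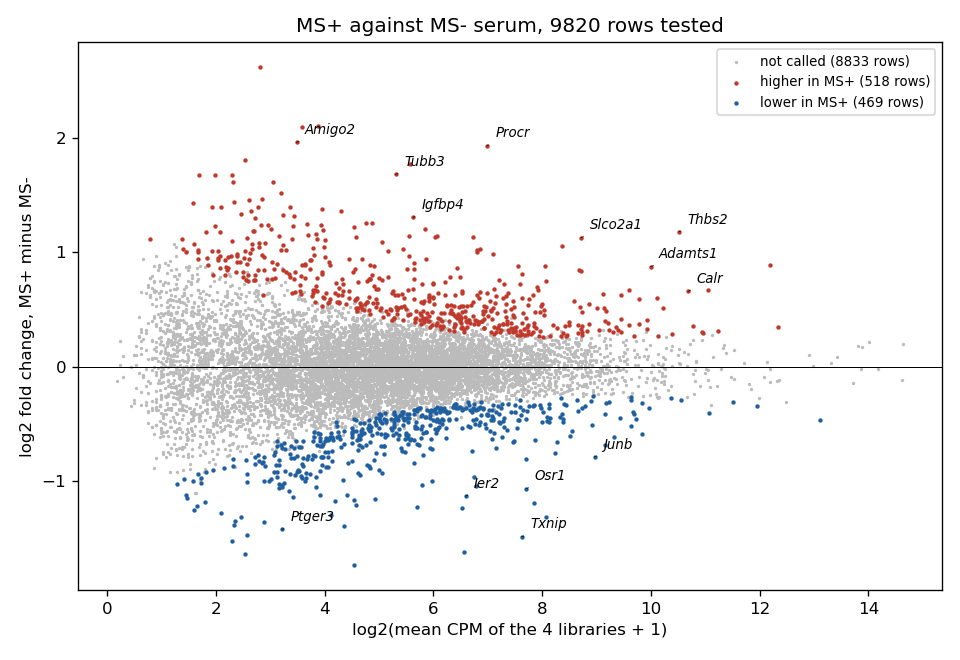
Log2 fold change of MS+ minus MS- (vertical axis) against the log2 of the mean CPM of the 4 libraries plus 1 (horizontal axis), 1 point per row tested. The 518 rows called higher lie above the line and the 469 called lower lie below it, with Procr, Thbs2 and Txnip standing out at high levels.

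The number of calls rests on the pairing by rat and on the libraries used. A fit that leaves out 1 MS- library takes its spread from MS+ and FBS alone. Without the block limma called 2 rows (0.0204%), Procr and Txnip, while edgeR without the block called 3, and limma left 1446 rows at an unadjusted p under 0.05. With the block and without MS- replicate 1 there were 97 calls, and without MS- replicate 2 there were 150. A core of 65 rows, 47 higher and 18 lower, stayed past the threshold when each of the 6 libraries was left out in turn. Over the 9820 rows the change in rat 1 and the change in rat 2, which share no library, had a Pearson correlation of 0.542 and a Spearman correlation of 0.481, and 66.6% of the rows had the same sign.

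**Figure D2:**
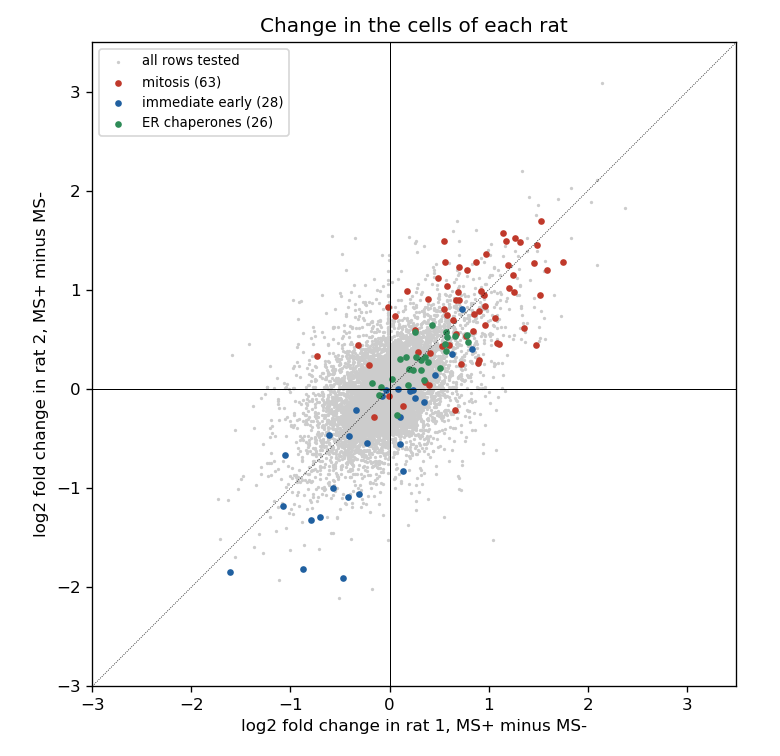
Log2 fold change of MS+ minus MS- in the cells of rat 1 (horizontal axis) and of rat 2 (vertical axis) for all 9820 rows (grey) and for 3 gene lists. The 63 mitosis genes (red) lie mostly at the upper right, with medians of 0.772 and 0.809, and 19 of the 28 immediate early genes (blue) have a negative fitted change.

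By the naming rule of the 15 largest changes each way, a large rise at a high level was in Procr (NM_001025733, chromosome 3, 146268567 to 146273715, plus strand in rn4), the endothelial protein C receptor, which binds protein C on the cell surface. Procr measured 174 and 226 CPM in MS+ and 48.3 and 54.4 CPM in MS-, with 21.8 and 19.1 CPM in FBS (log2 fold change 1.93, SE 0.12, limma adjusted p 3.72e-07). The MS+ libraries were both far above all other libraries, and the call held in every fit that left out 1 library. Amigo2 (NM_182816, chromosome 7, 135966794 to 135969747, minus strand), an adhesion protein with leucine-rich repeats, measured 12.1 and 21.5 CPM in MS+ and 2.20 and 5.06 CPM in MS- (log2 fold change 1.96, SE 0.24, limma adjusted p 0.000122). Tubb3 (NM_139254, chromosome 19, 53742652 to 53751706, plus strand), the class III beta-tubulin best known from neurons, measured 58.7 and 59.8 CPM in MS+ and 20.1 and 15.7 CPM in MS- (log2 fold change 1.68, SE 0.14, limma adjusted p 4.13e-06). Slc29a4, a plasma membrane carrier of monoamines, stood lower, at 5.22 and 11.01 CPM in MS+ and 0.915 and 2.17 CPM in MS- (log2 fold change 1.81, SE 0.26, limma adjusted p 0.000528). In each of these 4 genes the MS+ libraries exceeded all MS- and FBS libraries.

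Most of the other 11 large rises were in genes of cell division, described below (Cdkn3, Nuf2, Tacc3, Ube2c, Pttg1 and Cdc20). The other 5 were at low levels. Fbxl16, an F-box protein, measured 4.50 and 5.51 CPM against 0.549 and 1.27 (log2 fold change 1.68, limma adjusted p 0.00138). Scin, an actin-severing protein, measured 3.60 and 4.22 CPM against 0.732 and 0.362 (log2 fold change 1.67, limma adjusted p 0.00297). Its MS- values rest on 4 and 2 reads, the latter under the floor of 3 reads. Rassf2, which carries a Ras association domain, measured 4.32 and 18.9 CPM against 0.915 and 4.88 (log2 fold change 1.62, limma adjusted p 0.00775), so that rat 1 in MS+ lay below rat 2 in MS-. Scin and Rassf2 reached 1 CPM in both libraries of MS+ only, the group where they were high, so their place among the rises is uncertain. Exoc3l1 and the RNA helicase Ddx25 had log2 fold changes of 1.46 and 1.44. The adjusted p rose above 0.05 without MS+ replicate 2 for Scin and Rassf2 (up to 0.1), without MS- replicate 1 for Cdkn3, Pttg1, Fbxl16, Scin, Rassf2, Exoc3l1 and Ddx25 (up to 0.214) and without MS- replicate 2 for Scin, Rassf2 and Ddx25 (up to 0.0695).

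Txnip (NM_001008767, chromosome 2, 191356954 to 191360754, plus strand) fell at a high level. Txnip binds thioredoxin and restrains glucose uptake. It measured 99.6 and 106 CPM in MS+ and 259 and 321 CPM in MS-, with 179 and 166 CPM in FBS (log2 fold change -1.48, SE 0.10, limma adjusted p 3.86e-07), and both MS+ libraries were below the 4 others. Erg (NM_133397, chromosome 11, 35655563 to 35760055, minus strand), an ETS family transcription factor, measured 12.8 and 8.08 CPM in MS+ and 33.5 and 24.04 CPM in MS- (log2 fold change -1.39, SE 0.16, limma adjusted p 7.04e-05). Ppip5k1, a kinase that makes inositol pyrophosphates, measured 38.7 and 22.9 CPM in MS+ and 81.04 and 62.4 CPM in MS- (log2 fold change -1.23, SE 0.14, limma adjusted p 6.20e-05). The calls of these 3 genes held without any 1 library, as did that of the protocadherin Pcdh18, at 8.11 and 9.91 CPM against 19.2 and 28.6 (log2 fold change -1.29, limma adjusted p 0.000415).

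The other large falls were mostly at low levels. They included the creatine carrier Slc16a12 (1.44 and 2.75 CPM against 4.94 and 10.8, log2 fold change -1.47, limma adjusted p 0.00161), the prostaglandin E2 receptor Ptger3 (4.32 and 3.49 CPM against 16.6 and 8.68, log2 fold change -1.42, limma adjusted p 0.00112) and Mgll, a lipase that breaks down monoacylglycerols (1.62 and 1.28 CPM against 6.59 and 3.62, log2 fold change -1.27, limma adjusted p 0.00408). Angptl2, a secreted angiopoietin-like protein, measured 12.3 and 14.5 CPM against 36.6 and 28.2 (log2 fold change -1.21, limma adjusted p 0.000217). Colq, which anchors acetylcholinesterase, had a log2 fold change of -1.38, and Mcoln3, a cation channel of endosomes whose row overlaps another gene and is therefore uncertain, one of -1.35. The muscle Z-disc gene Myot, Arc, Hddc3, Gpr75 and the myosin Myh1 made up the rest, with log2 fold changes of -1.31, -1.35, -1.25, -1.22 and -1.23. The threshold was missed without MS+ replicate 2 for Mcoln3, Arc and Gpr75 (up to 0.287), without MS- replicate 1 for Slc16a12, Ptger3, Mgll, Angptl2, Colq, Mcoln3, Myot, Hddc3, Gpr75 and Myh1 (up to 0.255) and without MS- replicate 2 for Slc16a12, Mcoln3, Myot, Arc, Hddc3 and Gpr75 (up to 0.256).

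Cell division genes rose together. Mitosis is driven by cyclin-dependent kinase Cdk1 with cyclins A and B, the spindle is built by kinesins and tubulins, chromosomes are held by centromere proteins, and the anaphase-promoting complex with Cdc20 and Ube2c ends the phase. Of 63 mitosis genes tested, 40 (63.5%) were called higher and 0 lower, against 5.27% of all rows called higher. In 52 of the 63 the MS+ libraries were both above the MS- libraries (22.6% of all rows), and 17 met the study's rule. The median log2 fold change of the list was 0.802, with 0.772 in rat 1 and 0.809 in rat 2, beside -0.00581 over all rows. In bulk RNA, more dividing cells and more of these transcripts per cell cannot be told apart.

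By role, the kinase Cdk1 measured 17.8 and 19.6 CPM in MS+ and 8.60 and 7.05 CPM in MS- (log2 fold change 1.17, SE 0.16, limma adjusted p 0.000365), and Ccna2 (cyclin A) measured 11.4 and 8.63 CPM in MS+ and 3.29 and 3.98 CPM in MS- (log2 fold change 1.24, SE 0.20, limma adjusted p 0.00105). Both genes were higher still in FBS, at 49.1 and 41.1 CPM for Cdk1 and 29.3 and 30.3 CPM for Ccna2. Among spindle and centromere genes, Cenpf (NM_001100827, chromosome 13, 105920242 to 105965655, minus strand) measured 24.3 and 30.3 CPM in MS+ and 8.23 and 11.9 CPM in MS- (log2 fold change 1.37, SE 0.14, limma adjusted p 3.34e-05), and Nuf2 of the outer kinetochore measured 5.59 and 7.52 CPM in MS+ and 1.28 and 1.63 CPM in MS- (log2 fold change 1.61, SE 0.22, limma adjusted p 0.000365). Tacc3, which stabilises spindle microtubules, measured 12.3 and 12.8 CPM in MS+ and 2.93 and 4.70 CPM in MS- (log2 fold change 1.52, SE 0.19, limma adjusted p 0.000147). In all 3 the lower MS+ value exceeded the higher MS- value.

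Ckap2, a microtubule-associated protein, measured 28.5 and 34.5 CPM in MS+ and 11.9 and 13.9 CPM in MS- (log2 fold change 1.22, SE 0.14, limma adjusted p 6.20e-05), and Top2a, which untangles sister chromatids, measured 16.9 and 24.8 CPM against 6.77 and 11.7 (log2 fold change 1.11, limma adjusted p 0.000409). For the exit from mitosis, Cdc20 measured 12.4 and 15.4 CPM in MS+ and 4.57 and 4.70 CPM in MS- (log2 fold change 1.40, SE 0.18, limma adjusted p 0.000166), and Ube2c, the ubiquitin-conjugating enzyme of the anaphase-promoting complex, measured 8.47 and 10.6 CPM in MS+ and 2.38 and 3.25 CPM in MS- (log2 fold change 1.47, SE 0.20, limma adjusted p 0.000377). Pttg1, the securin that the complex destroys, measured 3.78 and 5.32 CPM against 0.915 and 1.27 (log2 fold change 1.40, limma adjusted p 0.00161), and Cdkn3, a phosphatase of cyclin-dependent kinases, measured 7.21 and 5.69 CPM against 0.915 and 1.81 (log2 fold change 1.68, limma adjusted p 0.000693). Tubb4b, a tubulin at a higher level whose row overlaps another gene, measured 298 and 299.5 CPM against 191 and 184 (log2 fold change 0.67, limma adjusted p 0.000151). The 23 members not called ranged from -0.219 to 0.777, and among them were Smc4 (a log2 fold change of -0.02), Bub3 (-0.04) and Aurka (0.39). Among these genes calls were lost without MS- replicate 1 for Ccna2, Pttg1 and Cdkn3 (up to 0.074).

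The MS+ levels lay between the other sera. In 48 of the 63 genes (76.2%) both MS- libraries were lowest, both MS+ libraries were between, and both FBS libraries were highest, an order found in 336 of all 9820 rows (3.42%). The 40 calls fell to 13 without MS- replicate 1 and 20 without MS- replicate 2, and 11 of them stayed without any 1 library, while the median stayed between 0.708 and 0.858. Without the block no gene of the list passed the adjusted threshold in limma (smallest adjusted p 0.0757), and 44 of 63 were at an unadjusted p under 0.05.

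Many promoters of the list share 2 short elements that are known from cell cycle genes, the cell cycle homology region (CHR, here TTTGAA) and the CCAAT box (CCAAT), each searched on both strands. RefSeq promoters of the GRCr8 assembly, from 250 bases before to 50 bases after the start, were matched for 54 of the 63 genes. A CHR was present in 36 (66.7%) and a CCAAT box in 41 (75.9%), while over 27457 promoters of the same length the shares were 18.1% and 37.7%. Among the 31 promoters of called members the counts were 22 and 27. A match is a description of letters and says nothing about binding. The 3 called members of smallest adjusted p that hold a CHR are shown 5′ to 3′ as they read on the gene's strand, with CHR and CCAAT matches of either strand in capitals, at chr13:103760837-103761136 (minus strand), chr16:76541864-76542163 (plus strand) and chr14:81289649-81289948 (minus strand).
Cenpf: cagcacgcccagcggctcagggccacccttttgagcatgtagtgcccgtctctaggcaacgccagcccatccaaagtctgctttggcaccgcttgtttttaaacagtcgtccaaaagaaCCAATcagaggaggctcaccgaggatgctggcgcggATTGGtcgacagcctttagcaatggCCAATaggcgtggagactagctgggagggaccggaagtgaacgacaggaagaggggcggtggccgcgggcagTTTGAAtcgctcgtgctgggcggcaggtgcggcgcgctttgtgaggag
Ckap2: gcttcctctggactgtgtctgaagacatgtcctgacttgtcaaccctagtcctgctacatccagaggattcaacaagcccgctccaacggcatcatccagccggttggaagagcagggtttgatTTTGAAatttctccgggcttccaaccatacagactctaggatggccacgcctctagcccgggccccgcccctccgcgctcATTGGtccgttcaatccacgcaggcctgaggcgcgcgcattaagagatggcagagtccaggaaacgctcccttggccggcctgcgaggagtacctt
Tacc3: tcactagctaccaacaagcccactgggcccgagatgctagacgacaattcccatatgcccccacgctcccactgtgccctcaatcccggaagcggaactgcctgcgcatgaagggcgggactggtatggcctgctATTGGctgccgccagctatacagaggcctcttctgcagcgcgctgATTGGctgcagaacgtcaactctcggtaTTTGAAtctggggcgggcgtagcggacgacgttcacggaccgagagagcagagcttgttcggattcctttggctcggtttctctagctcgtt

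A smaller share of DNA replication genes than of mitosis genes was called. Of 48 tested, 5 (10.4%) were called higher and 0 lower, against 5.27% of all rows called higher, and the median was 0.209. Rrm2, a subunit of the ribonucleotide reductase that makes deoxynucleotides, measured 16.2 and 21.7 CPM in MS+ and 7.87 and 8.32 CPM in MS- (log2 fold change 1.12, SE 0.15, limma adjusted p 0.000348). Of the replicative helicase, Mcm7 measured 11.7 and 12.5 CPM against 5.12 and 5.78 (log2 fold change 1.02, limma adjusted p 0.00183; its row overlaps another gene) and Mcm5 measured 3.78 and 4.04 CPM against 0.915 and 1.45 (log2 fold change 1.18, limma adjusted p 0.00487). Mcm5 was far higher in FBS, at 23.2 and 18.4 CPM. Orc2 of the origin recognition complex and the transcription factor E2f1 had log2 fold changes of 0.60 and 0.63. Of 16 p53 targets, 0 were called higher and 3 lower (18.8%, against 4.78% of all rows called lower), namely Btg2, Zmat3 (-0.34) and Plk3 (-0.44). The median of the 16 was -0.115, turning to 0.0835 without MS+ replicate 2. The named calls failed without MS+ replicate 1 for Orc2 (0.321), without MS+ replicate 2 for E2f1, Zmat3 and Plk3 (up to 0.232), without MS- replicate 1 for Mcm7, Mcm5, Orc2, E2f1, Zmat3 and Plk3 (up to 0.401) and without MS- replicate 2 for Mcm7, Orc2, E2f1, Btg2, Zmat3 and Plk3 (up to 0.426).

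**Figure D3:**
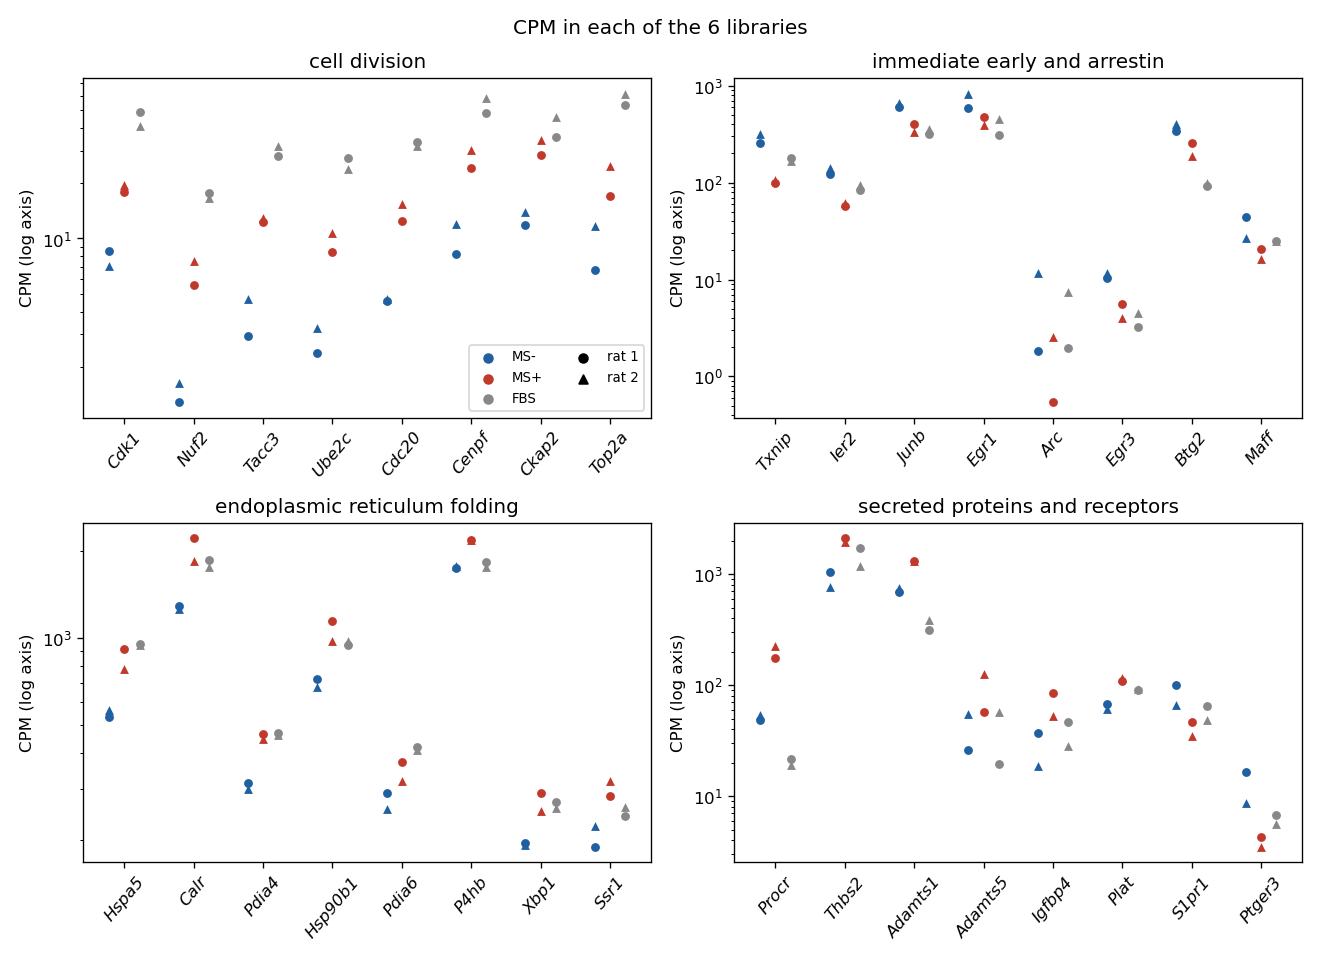
CPM on a log axis in each of the 6 libraries for 32 genes in 4 panels, with blue for MS-, red for MS+ and grey for FBS, circles for rat 1 and triangles for rat 2. Both MS+ points of the cell division genes lie above both MS- points, Hspa5 and Calr are lowest in MS-, and in Txnip, Ier2 and Ptger3 both MS+ points lie below all others.

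Immediate early genes held more calls lower than higher. They are switched on within minutes of a stimulus through serum response factor, CREB and ERK signalling, and most encode transcription factors. The cells here were harvested after days in each serum, so the values are levels in lasting culture and the first response was not measured. Of 28 tested, 13 were called lower (46.4%, against 4.78% of all rows) and 3 higher, with a median of -0.312, which was -0.148 in rat 1 and -0.469 in rat 2. Ier2 (NM_001009541, chromosome 19, 25159276 to 25160798, plus strand) measured 57.7 and 61.7 CPM in MS+ and 123 and 141 CPM in MS- (log2 fold change -1.13, SE 0.09, limma adjusted p 4.13e-06), and both MS+ libraries were under the 4 others, with 83.8 and 94.2 CPM in FBS. Junb, a partner of Fos in the AP-1 factor, measured 403 and 329.8 CPM in MS+ and 600.0 and 661 CPM in MS- (log2 fold change -0.79, SE 0.10, limma adjusted p 0.000217). The calls of Ier2 and Junb held without any 1 library.

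Egr1, a zinc finger factor, measured 477 and 394 CPM against 590.0 and 826 (log2 fold change -0.68, limma adjusted p 0.00537), and Egr3 measured 5.59 and 4.04 CPM against 10.4 and 11.6 (log2 fold change -1.06, limma adjusted p 0.00926). Btg2, which restrains proliferation, measured 258 and 189.8 CPM against 345 and 406 (log2 fold change -0.75, limma adjusted p 0.0012), although FBS was lower still at 92.8 and 98.2 CPM. The small Maf factor Maff, Ier3, Ier5, Atf3 and Zfp36, which speeds the decay of cytokine transcripts, had log2 fold changes of -0.86, -0.45, -0.53, -1.001 and -0.38. Arc differed more between the rats than between the sera, at 0.541 and 2.57 CPM against 1.83 and 11.6 (log2 fold change -1.35, limma adjusted p 0.00555). The members called higher were Myc, at 29.7 and 40.7 CPM against 17.6 and 22.8 (log2 fold change 0.77, limma adjusted p 0.00226), Klf4, at 174 and 169 CPM against 97.1 and 128 (log2 fold change 0.62, limma adjusted p 0.00228), and the nuclear receptor Nr4a2, at 28.3 and 26.1 CPM against 17.9 and 20.2 (log2 fold change 0.49, limma adjusted p 0.0458). The list's 16 calls became 7 without MS- replicate 1 and 5 without MS- replicate 2. By library, the threshold was missed without MS+ replicate 1 for Nr4a2 (0.194), without MS+ replicate 2 for Egr1, Egr3, Atf3, Zfp36 and Arc (up to 0.107), without MS- replicate 1 for Egr1, Egr3, Maff, Ier3, Ier5, Atf3, Zfp36, Myc, Klf4 and Nr4a2 (up to 0.49) and without MS- replicate 2 for Egr1, Egr3, Btg2, Ier3, Ier5, Atf3, Zfp36, Arc, Myc and Nr4a2 (up to 0.434).

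The ERK feedback list joins genes that restrain ERK with other genes of its signalling, such as Etv5. It had 4 of 18 members called lower and 1 higher (27.8%, beside 10.1% of all rows, median -0.113). The ETS factor Etv5 measured 44.7 and 49.2 CPM in MS+ and 78.7 and 76.6 CPM in MS- (log2 fold change -0.72, SE 0.10, limma adjusted p 0.000514), the phosphatase Dusp6 measured 32.8 and 29.9 CPM against 47.6 and 56.4 (log2 fold change -0.71, limma adjusted p 0.00239), and Spry4 measured 63.2 and 52.9 CPM against 100.4 and 79.9 (log2 fold change -0.62, limma adjusted p 0.000985). The GTPase activator Rasa1 had a log2 fold change of -0.48. Errfi1, which blocks the EGF receptor and is also a glucocorticoid target, was the member called higher, at 77.3 and 101 CPM against 50.7 and 63.6 (log2 fold change 0.63, limma adjusted p 0.00139). The 5 calls became 0 without MS- replicate 1 and 1 without MS- replicate 2. The alpha-arrestins, adaptors for the ubiquitin-mediated removal of carriers and receptors, numbered 5, with a median of -0.644. Of these, 3 were called lower (60%, against 4.78% of all rows called lower), Txnip, Arrdc3 (-0.64) and Arrdc4 (-1.02). In both lists the adjusted p exceeded 0.05 without MS+ replicate 1 for Arrdc4 (0.0549), without MS+ replicate 2 for Rasa1, Arrdc3 and Arrdc4 (up to 0.308), without MS- replicate 1 for Etv5, Dusp6, Spry4, Rasa1, Errfi1, Arrdc3 and Arrdc4 (up to 0.239) and without MS- replicate 2 for Dusp6, Spry4, Rasa1, Errfi1, Arrdc3 and Arrdc4 (up to 0.517).

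Of the chaperones of the endoplasmic reticulum (ER), 12 rose and 0 fell. They fold and oxidise secreted and membrane proteins, and many are targets of the unfolded protein response through ATF6 and Xbp1. Of 26 tested, 12 were called higher (46.2%, against 5.27% of all rows called higher) and 0 lower. The MS+ libraries were both above the MS- libraries in 20 of the 26 (22.6% of all rows). The median was 0.300, with 0.320 in rat 1 and 0.296 in rat 2. None reached 2-fold. Calr, a calcium-binding lectin chaperone, measured 2213 and 1843 CPM in MS+ and 1289 and 1264 CPM in MS- (log2 fold change 0.66, SE 0.09, limma adjusted p 0.000322). Hspa5 (BiP), the main ER chaperone of the HSP70 family, measured 919.6 and 779 CPM in MS+ and 531 and 561 CPM in MS- (log2 fold change 0.63, SE 0.09, limma adjusted p 0.000409). Hsp90b1, of the HSP90 family, measured 1141 and 979 CPM in MS+ and 723 and 676 CPM in MS- (log2 fold change 0.60, SE 0.09, limma adjusted p 0.000514). In FBS Hspa5 was higher still, at 957 and 944 CPM.

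The disulfide isomerases Pdia4, Pdia6, Pdia3 and P4hb had log2 fold changes of 0.57, 0.34, 0.33 and 0.31, and the translocon genes Ssr1, Ssr2 and Sec61b had 0.55, 0.54 and 0.42. The factor Xbp1 measured 290.4 and 251 CPM against 195 and 192 (log2 fold change 0.48, limma adjusted p 0.00209), and the co-chaperone Dnajb9 measured 54.2 and 50.3 CPM against 36.4 and 36.5 (log2 fold change 0.51, limma adjusted p 0.0116). Most calls of this group were lost when either MS- library was left out, in fits that take their spread from MS+ and FBS alone. The median of the group stayed between 0.286 and 0.320 with any 1 library left out. Without the block 15 of 26 were at an unadjusted p under 0.05, and the smallest adjusted p was 0.0999. The genes named lost their call without MS+ replicate 1 for Pdia6, Pdia3 and P4hb (up to 0.177), without MS+ replicate 2 for P4hb and Sec61b (up to 0.189), without MS- replicate 1 for Xbp1, Calr, Hspa5, Hsp90b1, Pdia4, Pdia6, Pdia3, P4hb, Ssr1, Ssr2, Sec61b and Dnajb9 (up to 0.499) and without MS- replicate 2 for Xbp1, Hsp90b1, Pdia4, Pdia6, Pdia3, P4hb, Ssr2, Sec61b and Dnajb9 (up to 0.402).

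The ER stress response element, CCAAT followed by 9 free bases and CCACG, was looked for on both strands after the values had been seen. It occurred in 8 of the 22 promoters matched for the list (36.4%) and in 21 of all 27457 (0.0765%). The 8 genes were Calr, Hspa5, Hsp90b1 and Xbp1, which were called, and Creld2, Dnajc3, Canx and Ero1lb, which were not. The plain CCAAT box, which the element contains, occurred in 18 of 22, and the core of the cyclic AMP response element (TGACG) in 12 of 22 against 22% of all promoters. The 3 called members of smallest adjusted p with the element are shown with its fixed bases in capitals (on the opposite strand these read CGTGG and ATTGG), at chr19:40213117-40213416 (plus strand), chr3:38452766-38453065 (plus strand) and chr7:23012244-23012543 (minus strand).
Calr: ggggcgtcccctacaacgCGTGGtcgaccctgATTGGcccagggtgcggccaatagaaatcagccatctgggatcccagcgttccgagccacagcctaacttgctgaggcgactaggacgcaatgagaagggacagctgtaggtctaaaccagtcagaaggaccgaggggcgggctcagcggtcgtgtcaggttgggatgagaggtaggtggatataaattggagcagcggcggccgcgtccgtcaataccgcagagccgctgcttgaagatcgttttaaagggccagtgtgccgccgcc
Hspa5: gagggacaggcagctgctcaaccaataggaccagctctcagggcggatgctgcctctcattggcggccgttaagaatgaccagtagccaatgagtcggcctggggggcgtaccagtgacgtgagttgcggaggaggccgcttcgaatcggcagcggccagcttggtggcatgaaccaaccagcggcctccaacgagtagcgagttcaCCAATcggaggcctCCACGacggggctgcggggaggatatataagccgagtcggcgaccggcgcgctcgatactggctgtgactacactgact
Hsp90b1: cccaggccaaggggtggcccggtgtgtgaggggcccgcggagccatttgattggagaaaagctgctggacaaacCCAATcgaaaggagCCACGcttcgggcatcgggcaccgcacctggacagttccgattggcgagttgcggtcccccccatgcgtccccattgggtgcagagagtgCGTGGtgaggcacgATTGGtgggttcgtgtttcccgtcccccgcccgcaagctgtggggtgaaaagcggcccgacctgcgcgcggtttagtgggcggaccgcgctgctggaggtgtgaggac

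The amino acid response, the programme of Atf4 for the uptake and synthesis of amino acids, was called in both directions. Of 28 genes tested, 11 were called higher and 2 lower (46.4%, beside 10.1% of all rows), and the median was 0.284. Slc7a5, a carrier of large neutral amino acids, measured 296 and 298 CPM in MS+ and 188 and 178 CPM in MS- (log2 fold change 0.69, SE 0.10, limma adjusted p 0.000528), and the cationic amino acid carrier Slc7a1 measured 132 and 142 CPM against 96.4 and 84.2 (log2 fold change 0.60, limma adjusted p 0.00105). Atf4 itself measured 576 and 629 CPM against 452 and 390.3 (log2 fold change 0.52, limma adjusted p 0.00439), the asparagine synthetase Asns 221 and 198 CPM against 165 and 128 (log2 fold change 0.52, limma adjusted p 0.00226), and Mthfd2 of the mitochondrial folate cycle 64.9 and 71.8 CPM against 45.7 and 36.3 (log2 fold change 0.73, limma adjusted p 0.00139). The members called lower were Nupr1, a stress-induced chromatin protein, at 127 and 176 CPM against 224 and 305 (log2 fold change -0.80, limma adjusted p 3.51e-05), and Ddit4, an inhibitor of mTORC1, at 15.1 and 20.4 CPM against 24.3 and 28.6 (log2 fold change -0.56, limma adjusted p 0.0256). The 13 calls became 3 without MS- replicate 1 and 2 without MS- replicate 2. Among those named, calls were lost without MS+ replicate 1 for Ddit4 (0.0936), without MS+ replicate 2 for Atf4 (0.0583), without MS- replicate 1 for Atf4, Slc7a5, Asns and Ddit4 (up to 0.358) and without MS- replicate 2 for Atf4, Slc7a1, Asns, Mthfd2 and Ddit4 (up to 0.247).

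Other protein synthesis and turnover genes showed small shifts. Of 20 tRNA synthetases 2 were called higher, Eprs (0.37) and Iars (0.39), with a median of 0.0799. Of 78 cytosolic ribosomal proteins 4 were called higher, Rpl3, Rpl6, Rpl10 and Rpl10a (0.40, 0.38, 0.28 and 0.44), and 71 had a positive value (49% of all rows did), with a median of 0.127. Ribosomal protein genes have many near-identical pseudogenes and are uncertain for that reason. Of 44 proteasome genes 4 were called higher, the cap protein Psme4 (0.46), the immunoproteasome subunit Psmb10 (0.73), Psmd8 and Psmc3, with a median of 0.0987. Of 75 respiratory chain and ATP synthase genes 1 was called higher, Atp5sl (0.45), with a median of 0.0904. All of these calls were higher, and their shares of 10%, 5.13%, 9.09% and 1.33% compare with 5.27% of all rows called higher. None of the named calls stayed without MS- replicate 1, and none stayed without MS- replicate 2.

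Matrix genes moved in both directions, with 13% to 25% of the members of each list called, beside 10.1% of all rows. Of 32 matricellular proteins, proteoglycans and hyaluronan genes, 5 were called higher and 3 lower (25% in all, median 0.0677, or -0.0311 without MS+ replicate 1). Thbs2 (NM_001169138, chromosome 1, 53584406 to 53613652, minus strand), a thrombospondin that binds matrix and inhibits vessel growth, measured 2094 and 1947 CPM in MS+ and 1037 and 764 CPM in MS- (log2 fold change 1.18, SE 0.10, limma adjusted p 5.29e-06). The syndecan Sdc4, a heparan sulfate proteoglycan of focal adhesions, measured 517 and 525 CPM in MS+ and 258 and 326 CPM in MS- (log2 fold change 0.84, SE 0.10, limma adjusted p 0.00013), and both calls held without any 1 library. Acan, the large proteoglycan of cartilage, measured 2671 and 2538 CPM in MS+ and 1452 and 1827 CPM in MS- (log2 fold change 0.68, SE 0.10, limma adjusted p 0.000693), and Cilp, another cartilage gene, measured 4.86 and 13.6 CPM against 2.20 and 3.80 (log2 fold change 1.24, limma adjusted p 0.00549). Syndecan Sdc1 was called higher (0.41), while the matricellular Wisp1, the syndecan Sdc3 and the sulfatase Sulf1 were called lower (-0.64, -0.40 and -0.33).

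Of 16 collagens 3 were called higher, Col5a3 at 119 and 126 CPM against 83.4 and 83.9 (log2 fold change 0.54, limma adjusted p 0.0017), the basement membrane chain Col4a1 (0.35) and Col14a1 (0.65), with a median of 0.129. The most abundant member, Col1a1, measured 28736 and 25507 CPM against 23563 and 23624 and was not called (log2 fold change 0.20, limma adjusted p 0.423). Of 23 elastic fibre and crosslinking genes 3 were called lower and 0 higher, with a median of 0.00406, which turned to -0.0138 when library totals replaced TMM. They were the lysyl oxidase Loxl1 at 569 and 437 CPM against 908 and 636 (log2 fold change -0.61, limma adjusted p 0.000406), the prolyl hydroxylase P4ha3 (-0.50) and Ltbp2 (-0.31). Calls in these matrix lists were lost without MS+ replicate 1 for Col4a1 and Ltbp2 (up to 0.217), without MS+ replicate 2 for Cilp, Sdc1, Sulf1, Col4a1, Col14a1 and Ltbp2 (up to 0.508), without MS- replicate 1 for Acan, Cilp, Sdc1, Wisp1, Sdc3, Sulf1, Col5a3, Col4a1, Col14a1, Loxl1, P4ha3 and Ltbp2 (up to 0.541) and without MS- replicate 2 for Cilp, Sdc1, Wisp1, Sdc3, Sulf1, Col5a3, Col4a1, Col14a1, P4ha3 and Ltbp2 (up to 0.52).

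Of 25 matrix proteases and TIMPs 3 were called higher and 1 lower (16%, median 0.0288, with -0.063 without MS- replicate 2). All 3 that rose belong to the ADAMTS family, which cleaves proteoglycans. Adamts1 (NM_024400, chromosome 11, 25434262 to 25443144, minus strand) measured 1318 and 1322 CPM in MS+ and 685 and 754 CPM in MS-, with 312 and 384 CPM in FBS (log2 fold change 0.88, SE 0.09, limma adjusted p 2.52e-05). Adamts5, an aggrecanase, measured 56.9 and 127 CPM in MS+ and 26.2 and 54.8 CPM in MS- (log2 fold change 1.15, SE 0.13, limma adjusted p 5.82e-05), and rat 2 in MS- was close to rat 1 in MS+. Adamts9 measured 122 and 181 CPM against 69.5 and 129 (log2 fold change 0.64, limma adjusted p 0.00185). Mmp16, a membrane-type metalloproteinase, was called lower, at 21.8 and 15.6 CPM against 34.6 and 33.8 (log2 fold change -0.85, limma adjusted p 0.00138). Adamts1 and Adamts5 stayed called without any 1 library.

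In coagulation and plasminogen activation, 4 of 17 genes were called higher and 1 lower (29.4%, median -0.0257, 0.0549 without MS+ replicate 2). Beside Procr, the plasminogen activator Plat measured 108 and 116 CPM in MS+ and 68.2 and 61.3 CPM in MS- (log2 fold change 0.78, SE 0.10, limma adjusted p 0.000166), tissue factor F3 measured 60.9 and 91.6 CPM against 43.7 and 59.1 (log2 fold change 0.55, limma adjusted p 0.00502) and the C1 inhibitor Serping1 40.00 and 44.8 CPM against 29.6 and 33.6 (log2 fold change 0.41, limma adjusted p 0.0438). Serping1 was also the single called member of the 11 complement genes (9.09%, beside 10.1% of all rows, median 0.0749). Calls here were lost without MS+ replicate 1 for Serping1 (0.125), without MS+ replicate 2 for Serping1 (0.0578), without MS- replicate 1 for Adamts9, F3 and Serping1 (up to 0.315) and without MS- replicate 2 for Adamts9, Mmp16, F3 and Serping1 (up to 0.4).

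Vasoactive peptides and their receptors held large rises. Of 24 genes tested 5 were called higher and 1 lower (25%), 4 met the study's rule, and the median was 0.215. Beside the natriuretic peptide Nppc and the endothelin receptor Ednrb, adrenomedullin (Adm) measured 14.8 and 19.3 CPM in MS+ and 6.77 and 6.33 CPM in MS- (log2 fold change 1.24, SE 0.22, limma adjusted p 0.00244). The angiotensin receptor Agtr1a measured 7.39 and 98.4 CPM against 2.20 and 61.8 (log2 fold change 1.03, limma adjusted p 0.00236), so that the rats differed far more than the sera, and Penk, the precursor of enkephalins, showed the same, at 2206 and 9675 CPM against 1112 and 5588 (log2 fold change 0.89, limma adjusted p 0.000885). Endothelin itself, Edn1, was called lower, at 40.4 and 22.6 CPM against 65.7 and 39.6 (log2 fold change -0.74, limma adjusted p 0.000693).

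Prostanoid genes were called in both directions, 3 of 17 higher and 3 lower (35.3%, median 0.0486, or -0.0363 without MS- replicate 1). Slco2a1 (NM_022667, chromosome 8, 108012829 to 108099184, plus strand), which takes prostaglandins up into the cell, measured 437 and 706 CPM in MS+ and 176 and 364 CPM in MS- (log2 fold change 1.13, SE 0.11, limma adjusted p 2.11e-05). The receptor for prostaglandin F, Ptgfr, measured 82.5 and 82.2 CPM against 49.03 and 55.7 (log2 fold change 0.65, limma adjusted p 0.00369), and the cyclooxygenase Ptgs1 89.00 and 138 CPM against 62.6 and 77.4 (log2 fold change 0.66, limma adjusted p 0.0122). Beside Ptger3, the calls that were lower were the phospholipase Pla2g4a, at 11.7 and 10.8 CPM against 20.1 and 20.1 (log2 fold change -0.78, limma adjusted p 0.00441), and the synthase Ptges2, at 7.39 and 6.61 CPM against 14.5 and 13.4 (log2 fold change -0.90, limma adjusted p 0.00457). The called receptors went both ways, with Ptgfr higher and Ptger3 lower. The called enzymes did so too, with Ptgs1 higher and Ptges2 and Pla2g4a, the phospholipase that frees arachidonic acid, lower. Of the vasoactive and prostanoid genes, calls were lost without MS+ replicate 2 for Ptgs1 (0.103), without MS- replicate 1 for Adm, Agtr1a, Ptgfr, Ptgs1, Ptger3, Pla2g4a and Ptges2 (up to 0.26) and without MS- replicate 2 for Adm, Penk, Edn1, Ptgfr, Ptgs1, Pla2g4a and Ptges2 (up to 0.156).

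Lipid and nucleotide receptor genes included 5 of 30 called higher and 3 lower (26.7%, median -0.0424, 0.0776 without MS- replicate 1). In sphingosine 1-phosphate signalling, the receptor S1pr1 measured 46.8 and 34.7 CPM in MS+ and 101 and 65.8 CPM in MS- (log2 fold change -0.998, SE 0.11, limma adjusted p 4.40e-05), and S1pr2 measured 55.5 and 61.1 CPM against 87.1 and 78.5 (log2 fold change -0.50, limma adjusted p 0.00707). The kinase that makes this lipid, Sphk1, measured 53.3 and 50.1 CPM against 38.2 and 29.6 (log2 fold change 0.60, limma adjusted p 0.00679), so the receptors were lower and the kinase higher. In lysophosphatidic acid signalling, the receptor Lpar1 measured 30.3 and 44.97 CPM against 13.7 and 27.7 (log2 fold change 0.88, limma adjusted p 0.00161), the enzyme Enpp2 (autotaxin), which makes the lipid, 10.6 and 4.77 CPM against 2.93 and 3.07 (log2 fold change 1.03, limma adjusted p 0.0343), and the phosphatase Ppap2b, which degrades it, 393 and 494 CPM against 172 and 261 (log2 fold change 1.05, limma adjusted p 5.82e-05). Adenosine deaminase, Ada, had a log2 fold change of 0.56, and Rgs16, which shortens G-protein signals, -0.57. Outside S1pr1 and Ppap2b, the threshold was missed without MS+ replicate 1 for Enpp2 (0.438), without MS+ replicate 2 for Ada (0.19), without MS- replicate 1 for S1pr2, Sphk1, Lpar1, Enpp2, Ada and Rgs16 (up to 0.431) and without MS- replicate 2 for S1pr2, Sphk1, Enpp2, Ada and Rgs16 (up to 0.444).

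Growth factor lists had from 4.35% to 22.6% of their members called, beside 10.1% of all rows. Of 13 IGF genes 2 were called higher (15.4%, median 0.0819). Igfbp4, a binding protein that holds IGF back, measured 84.7 and 52.9 CPM in MS+ and 37.1 and 18.8 CPM in MS- (log2 fold change 1.31, SE 0.12, limma adjusted p 1.46e-05), and the protease that cleaves it, Pappa, measured 297 and 102 CPM against 157 and 70.3 (log2 fold change 0.73, limma adjusted p 0.00138). A list of 31 genes of PDGF, FGF, EGF and VEGF signalling also held other factors and receptors, such as Bdnf, Angptl2 and the semaphorin receptors Nrp1 and Nrp2. Of the 31, 4 were called higher and 3 lower (22.6%, median 0.0724). Bdnf, Pdgfra, Pdgfd and Nrp1 were higher (0.58, 0.34, 0.68 and 0.49), and Angptl2, Nrp2 and the neuregulin Nrg1 were lower (-1.21, -0.65 and -1.17).

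Of 29 BMP genes 3 were called higher and 1 lower (13.8%, median 0.0248). The ligands Bmp2 and Bmp4 measured 42.5 and 51.2 CPM against 19.03 and 26.9 (log2 fold change 1.01, limma adjusted p 0.0069) and 17.7 and 17.1 CPM against 9.15 and 10.3 (log2 fold change 0.78, limma adjusted p 0.0301), the antagonist Grem1 had a log2 fold change of 0.32, and Id3, a target of the pathway, was called lower, at 150.1 and 153 CPM against 227 and 213 (log2 fold change -0.54, limma adjusted p 0.00132). Of 23 TGF-beta and activin genes 1 was called higher, the activin antagonist Fst (0.61), with a median of -0.151. Of 29 Wnt and planar polarity genes 3 were called higher and 1 lower (median -0.0158, turning to 0.0479 without MS- replicate 2), among them the receptors Fzd1 at 1545 and 1263 CPM against 1104 and 862 (log2 fold change 0.52, limma adjusted p 0.00165) and Fzd4 (0.85). Of 14 Notch genes 0 were called higher and 2 lower, the target Hes1 (-0.74) and Numb (-0.37), with a median of -0.0574. Calls in these growth factor lists were lost without MS+ replicate 1 for Pdgfd, Nrp1, Bmp4, Grem1 and Fst (up to 0.625), without MS+ replicate 2 for Pdgfra, Pdgfd and Numb (up to 0.0864), without MS- replicate 1 for Pappa, Bdnf, Pdgfra, Pdgfd, Nrp1, Angptl2, Nrp2, Nrg1, Bmp2, Bmp4, Grem1, Id3, Fst, Fzd1, Fzd4 and Numb (up to 0.493) and without MS- replicate 2 for Bdnf, Pdgfra, Pdgfd, Nrp1, Nrg1, Bmp2, Bmp4, Grem1, Id3, Fst, Fzd1, Hes1 and Numb (up to 0.686).

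Inflammatory lists had shares of calls near or under the 10.1% of all rows. Of 28 chemokines and cytokines 2 were called higher and 1 lower (10.7%, median -0.131). The neutrophil attractant Cxcl1 measured 84.7 and 44.6 CPM in MS+ and 30.2 and 24.8 CPM in MS- (log2 fold change 1.14, SE 0.17, limma adjusted p 0.000569), the receptor Il1rl1 had a log2 fold change of 0.29, and Lif was called lower, at 11.2 and 7.16 CPM against 19.8 and 12.8 (log2 fold change -0.77, limma adjusted p 0.019). Of 13 NF-kappaB genes 1 was called higher, the inhibitor Nfkbia (0.63), with a median of -0.0123, and 0.170 without MS+ replicate 2. Of 27 interferon genes 1 was called higher, Psmb10, and 1 lower, the RNA sensor Ddx58 (-0.87), with a median of -0.116. Their calls were lost without MS+ replicate 1 for Il1rl1 (0.0863), without MS+ replicate 2 for Il1rl1 and Lif (up to 0.128), without MS- replicate 1 for Cxcl1, Il1rl1, Lif, Nfkbia, Psmb10 and Ddx58 (up to 0.535) and without MS- replicate 2 for Il1rl1, Lif, Nfkbia, Psmb10 and Ddx58 (up to 0.339).

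Glucocorticoid targets held more calls higher than lower. The hormone receptor induces these genes directly, and the list may have been written with values of these libraries in view, so it is not independent evidence. Of 18 tested, 7 were called higher and 1 lower (44.4%), with a median of 0.321. Tsc22d3 (GILZ) measured 179 and 189 CPM in MS+ and 121 and 96.9 CPM in MS-, with 75.96 and 61.2 CPM in FBS (log2 fold change 0.76, SE 0.11, limma adjusted p 0.000391). Crispld2 measured 311 and 184 CPM against 201 and 92.2 (log2 fold change 0.81, limma adjusted p 0.000406). Pdk4, which shuts carbohydrate out of mitochondrial oxidation, measured 40.5 and 39.8 CPM in MS+ and 15.7 and 16.6 CPM in MS-, with 1.64 and 1.82 CPM in FBS (log2 fold change 1.26, SE 0.18, limma adjusted p 0.000415). The clock gene Per1 measured 168 and 146 CPM against 106 and 104 (log2 fold change 0.58, limma adjusted p 0.00352), while Nfkbia, Errfi1 and Il1rl1, given above, were the other members called higher and Ddit4 was the one called lower. In 7 of the 18 (38.9%) the order was FBS, MS-, MS+ from lowest to highest without overlap, against 5.38% of all rows. The 8 calls became 3 without MS- replicate 1 and 2 without MS- replicate 2.

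Of 14 clock genes 2 were called higher (14.3%, against 5.27% of all rows called higher), with a median of 0.0133. They were Per1 and the repressor Nr1d1 (0.67, a row that overlaps another gene). Of 32 genes of fatty acid oxidation and PPAR targets 4 were called higher and 1 lower (15.6%, median 0.104). The thioesterase Acot2 measured 70.4 and 51.9 CPM against 32.9 and 28.2 (log2 fold change 0.97, limma adjusted p 0.000406), the lipoprotein lipase Lpl 25.6 and 15.6 CPM against 9.51 and 8.86 (log2 fold change 1.05, limma adjusted p 0.00257), and Fabp3, a fatty acid carrier whose row overlaps another gene, was called lower (-0.64). Of 31 genes of sterol and fatty acid synthesis 5 were called higher and 2 lower (22.6%, median -0.0485, 0.0141 without MS+ replicate 1). The desaturases Fads1, Fads2, Scd and Scd1 (0.60, 0.70, 0.51 and 0.56) and Lss (0.47) were higher, and the sterol genes Sqle and Insig1 were lower (-0.39 and -0.36). The row labelled Scd is named Scd2 in RefSeq. The rows labelled Scd and Scd1 are closely similar and uncertain. Calls in the glucocorticoid, clock and lipid lists were lost without MS+ replicate 1 for Il1rl1, Ddit4, Nr1d1, Scd1 and Sqle (up to 0.194), without MS+ replicate 2 for Il1rl1, Fads2, Scd1 and Insig1 (up to 0.128), without MS- replicate 1 for Per1, Nfkbia, Errfi1, Il1rl1, Ddit4, Nr1d1, Acot2, Lpl, Fabp3, Fads2, Scd1, Lss, Sqle and Insig1 (up to 0.636) and without MS- replicate 2 for Tsc22d3, Per1, Nfkbia, Errfi1, Il1rl1, Ddit4, Nr1d1, Fabp3, Fads1, Fads2, Scd, Scd1, Lss, Sqle and Insig1 (up to 0.434).

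Stress and energy lists gave scattered calls, with 4.35% to 23.8% of the members of each list called, beside 10.1% of all rows. Of 21 heat shock genes 2 were called higher and 3 lower (median 0.00246, or -0.0153 with library totals), with the small heat shock protein Hspb6 at 223 and 260.1 CPM against 132 and 159 (log2 fold change 0.73, limma adjusted p 0.000163) and Hsp90ab1 (0.32) higher, and Hspa4, Dnajb4 and Hspa1b (-0.36, -0.38 and -0.69) lower. Of 32 NRF2 and glutathione genes 5 were called higher, among them Nqo1 (0.68), Me1 (0.31), Sod1 (0.38) and Txnrd1 (0.28, a row that overlaps another gene), with a median of 0.0646, or -0.0247 without MS+ replicate 2. Of 19 hypoxia genes 3 were called higher and 1 lower (median -0.061, 0.0527 without MS+ replicate 2), with Adm, the carbonic anhydrase Car9 (0.42) and Slc2a1 (0.47) higher and Ddit4 lower. Slc2a1, the glucose carrier, was also the single called gene of 23 in glycolysis (median -0.0118). Of 32 lysosome genes 1 was called higher, Atp6v0d1 (0.27), and 1 lower, Neu1 (-0.47), with a median of -0.0844. Here calls were lost without MS+ replicate 1 for Hspa1b, Txnrd1, Ddit4 and Atp6v0d1 (up to 0.0936), without MS+ replicate 2 for Hsp90ab1, Hspa4, Dnajb4, Nqo1, Me1, Sod1, Txnrd1, Slc2a1 and Atp6v0d1 (up to 0.353), without MS- replicate 1 for Hsp90ab1, Hspa4, Dnajb4, Hspa1b, Nqo1, Me1, Sod1, Txnrd1, Adm, Car9, Slc2a1, Ddit4, Atp6v0d1 and Neu1 (up to 0.506) and without MS- replicate 2 for Hsp90ab1, Hspa4, Dnajb4, Hspa1b, Nqo1, Me1, Sod1, Txnrd1, Adm, Car9, Slc2a1, Ddit4, Atp6v0d1 and Neu1 (up to 0.473).

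Adhesion, guidance and contractile genes also went both ways, with 18.8% to 24.1% of the members of each list called, beside 10.1% of all rows. Of 29 axon guidance genes 4 were called higher and 3 lower (median 0.017), with the semaphorins Sema3e, Sema5a and Sema3d higher (0.66, 1.23 and 0.53) and Sema7a and Robo2 lower (-0.62 and -0.40). The semaphorin receptors split, with Nrp1 at 166 and 123 CPM against 93.3 and 111 and Nrp2 at 236 and 240.1 CPM against 357 and 394. Of 32 integrins, cadherins and tetraspanins 3 were called higher, Itga8, Cdh11 and Cd82 (0.48, 0.38 and 0.35), and 3 lower, Pcdh18, Ncam1 and Cd151 (-1.29, -0.56 and -0.26), with a median of 0.0152. Of 9 gap junction and pannexin genes 2 were called higher, Gjb2 and Gja1 (connexin 43), which measured 198 and 346 CPM against 118 and 241 (log2 fold change 0.63, limma adjusted p 0.000885), with a median of 0.368.

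Of 28 contractile genes 2 were called higher, Mylk and Actg2 (0.46 and 0.36), and 4 lower, Myh10, Vcl, Tpm1 and Tpm4 (-0.44, -0.40, -0.46 and -0.26), with a median of -0.0197, or 0.00956 without MS- replicate 2. The list of 17 YAP and TEAD targets also held regulators of the pathway, such as Wwtr1 (TAZ) and Tead3. In it 1 gene was called higher, F3, and 1 lower, Wwtr1 (-0.38), which is 11.8% beside 10.1% of all rows, with a median of -0.0274. The fast and developmental myosins Myh1, Myh2, Myh4 and Myh8 were each called lower (-1.23, -0.84, -1.05 and -0.91), they lie in 1 family of closely similar genes and are uncertain, and rat 2 exceeded rat 1 by more than MS- exceeded MS+. Muscle actins Acta1 and Actc1 were called higher, at 1199.9 and 1026 CPM against 912 and 766 (log2 fold change 0.41, limma adjusted p 0.00412) and 749 and 649.9 CPM against 601 and 530.4 (log2 fold change 0.31, limma adjusted p 0.0209), and skeletal muscle markers summed to 1960 and 1700 CPM in MS+ and 1530 and 1330 CPM in MS-. The part of this difference in the results was not tested. Of 33 limb patterning factors 0 were called higher and 2 lower (6.06%, against 4.78% of all rows called lower), with a median of -0.214. A negative value was found in 26 of the 33, while 49% of all rows had a positive one. Osr1 (NM_001106716, chromosome 6, 33074412 to 33076769, plus strand), a zinc finger factor of connective tissue, measured 94.8 and 171 CPM in MS+ and 186 and 383 CPM in MS- (log2 fold change -1.06, SE 0.09, limma adjusted p 4.13e-06) and kept its call without any 1 library, and Tbx18 measured 121 and 67.9 CPM against 156 and 107 (log2 fold change -0.50, limma adjusted p 0.00401). In these lists calls were lost without MS+ replicate 1 for Nrp1, Cdh11, Cd151, Tpm4 and Actc1 (up to 0.625), without MS+ replicate 2 for Robo2, Cd151, Actg2, Vcl, Tpm1, Tpm4, Myh2, Myh8 and Actc1 (up to 0.195), without MS- replicate 1 for Sema3e, Sema5a, Sema3d, Sema7a, Robo2, Nrp1, Nrp2, Itga8, Cdh11, Cd82, Cd151, Gja1, Mylk, Actg2, Myh10, Vcl, Tpm1, Tpm4, F3, Wwtr1, Myh1, Myh2, Myh4, Myh8, Acta1, Actc1 and Tbx18 (up to 0.56) and without MS- replicate 2 for Sema3e, Sema3d, Robo2, Nrp1, Itga8, Cdh11, Cd82, Ncam1, Cd151, Mylk, Actg2, Myh10, Vcl, Tpm1, Tpm4, F3, Wwtr1, Myh2, Myh4, Myh8, Acta1, Actc1 and Tbx18 (up to 0.497).

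**Figure D4:**
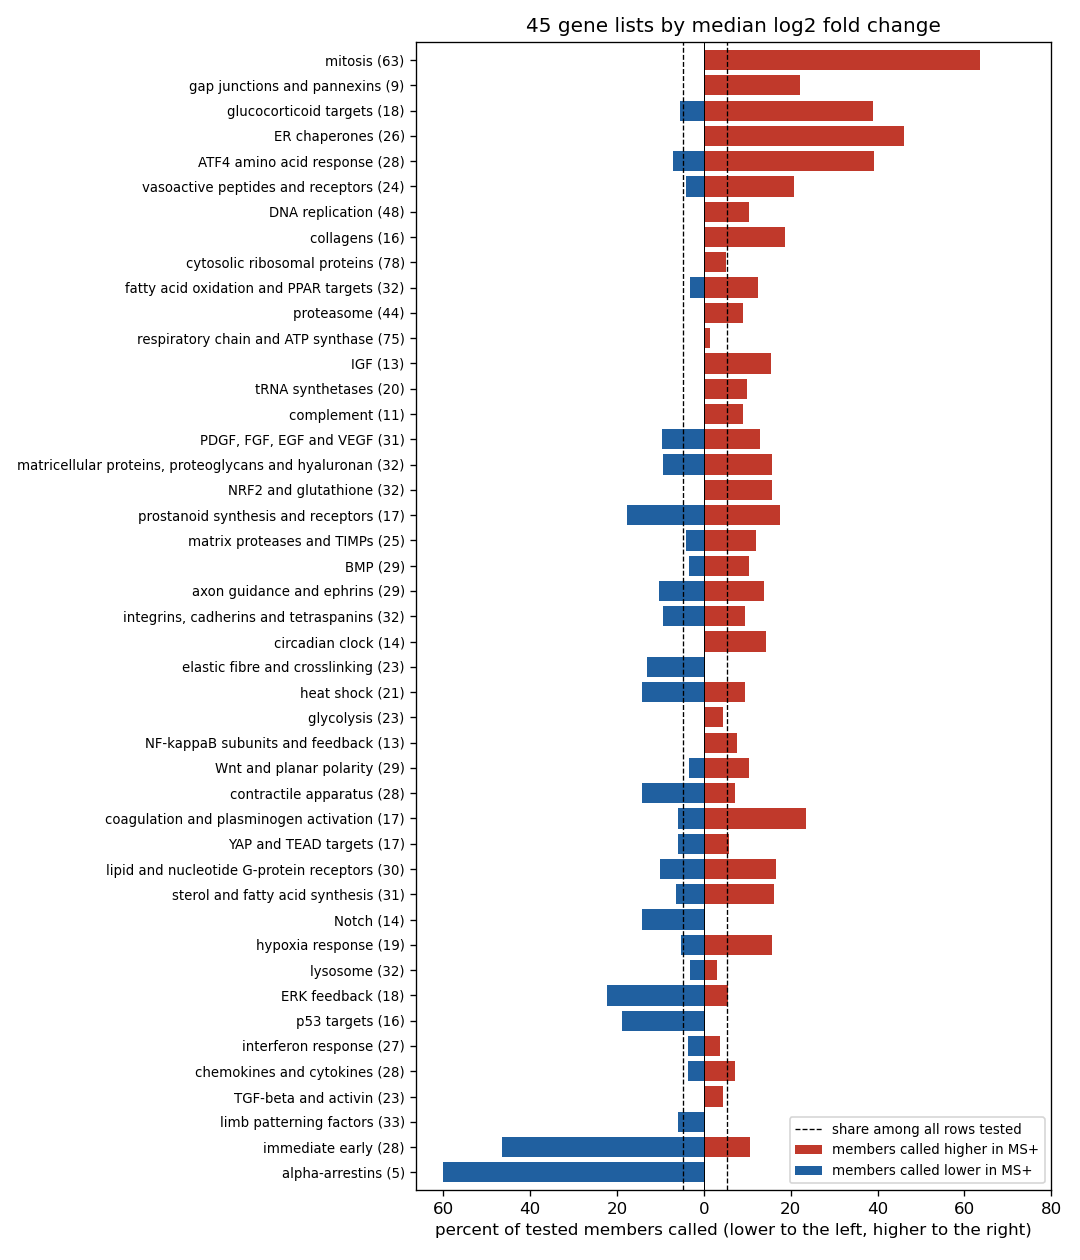
Percent of the tested members of each of 45 gene lists called higher (red, to the right) or lower (blue, to the left) in MS+, with the number tested in brackets and the shares among all rows as dashed lines. Mitosis (63.5% called) and ER chaperones (46.2%) extend farthest to the right, and alpha-arrestins and immediate early genes extend farthest to the left.

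The medians of 19 of the 45 lists changed sign in at least 1 alternative setting or with 1 library left out, and no direction is drawn from those. The lists held 1186 of the rows tested and 227 of the 987 called, so most calls lie outside them. Among the core of 65 rows that stayed called without any 1 library, genes outside the lists were chosen after their values were seen. Tpbg, a leucine-rich repeat glycoprotein of the cell surface, measured 135 and 154 CPM in MS+ and 64.6 and 65.3 CPM in MS- (log2 fold change 1.14, SE 0.09, limma adjusted p 4.13e-06). Lrrc32 (GARP), which holds latent TGF-beta at the cell surface, measured 222 and 264 CPM in MS+ and 113 and 150.4 CPM in MS- (log2 fold change 0.88, SE 0.10, limma adjusted p 8.65e-05). The redox enzyme Glrx measured 73.3 and 85.9 CPM in MS+ and 29.5 and 39.05 CPM in MS- (log2 fold change 1.20, SE 0.14, limma adjusted p 8.03e-05). The potassium channel Kcnd3 measured 177 and 121 CPM against 76.1 and 68.7 (log2 fold change 1.01, limma adjusted p 7.24e-05), and gliomedin (Gldn) 459 and 229 CPM against 239 and 129 (log2 fold change 0.88, limma adjusted p 4.35e-05). Synpo, an actin-associated protein, measured 87.4 and 91.03 CPM against 39.9 and 40.3 (log2 fold change 1.13, limma adjusted p 2.52e-05), and Rab6b, a Golgi GTPase, 179 and 184 CPM against 83.8 and 99.2 (log2 fold change 0.99, limma adjusted p 2.15e-05). Of the core rows that fell, nestin (Nes) measured 16.9 and 8.63 CPM against 32.2 and 23.5 (log2 fold change -1.12, limma adjusted p 0.00013), the adenylyl cyclase Adcy3 20.2 and 15.8 CPM against 45.2 and 37.2 (log2 fold change -1.16, limma adjusted p 6.37e-05) and the anchoring protein Akap6 64.9 and 77.1 CPM against 114 and 169 (log2 fold change -0.96, limma adjusted p 7.24e-05).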

How the data were processed

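RNA of the 6 libraries was sequenced. Per the submitters' processing notes, reads were aligned with Bowtie2 2.1.0 to the rn4 genome and counted with HTSeq 0.5.4p3. The deposited signal values are CPM that the authors scaled by TMM, and the whole reads behind them were recovered for all values within 1e-06 (5463316 to 5991889 reads per library, a floor of 3 reads being 0.491 to 0.551 CPM). Whether counting used strand is not given in the sources used here, so 61 called rows that overlap another gene are uncertain. The floor covers counting error only, while the SEs printed with fold changes come from the limma fit.

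Rows at 1 CPM or more in both libraries of a group were fitted as log2(CPM + 1) with limma 3.58.1 (R 4.3.3, trended prior, 2 residual and 15.4 moderated degrees of freedom) over all 6 libraries, with serum and rat as terms and Benjamini-Hochberg adjustment. The study's methods name limma-voom, which was run as an alternative, as were edgeR 4.0.16 and DESeq2 1.42.0 on recovered reads. The labels number the cells RA1 and RA2 in each serum, and same-numbered libraries deviated together (correlations of 0.59, 0.494 and 0.616), so the rat was kept as a block.

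Named genes were the 15 largest rises and 15 largest falls among called rows of 1 CPM or more, without Nppc, Ednrb, Celsr3, Egr2, Prima1, Fos, Wnt5b, Gjb2 and LOC or RGD symbols, then members of each gene list by adjusted p and level. Further called members and the genes outside the lists were chosen after their values were seen. The comparison and all lists were chosen with earlier results of these data known. Positions are in rn4, and promoters are RefSeq sequences of GRCr8. Values of some called list members are not reported here.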

Additional observations from a re-analysis of the deposited data

Results flagged for a closer look

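The medians of 2 lists moved in opposite directions in the cells of the 2 rats, each by at least 0.05. The median log2 fold change of glycolysis genes was -0.0636 in rat 1 and 0.077 in rat 2. For Wnt and planar polarity genes it was 0.0542 in rat 1 and -0.0503 in rat 2. The difference between the rats was not tested.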

How the results depend on the processing

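All 987 called rows kept their direction in every setting that held them. All 987 already had the same direction in both rats, so this was largely fixed by how rows were called and is no separate support. Without the replicate block limma called 2 rows, with 1446 at an unadjusted p under 0.05, and edgeR without the block, a fit chosen after seeing the data, called 3 by adjusted p and 230 by the study's rule. Against 987 calls by adjusted p, the 4 serum libraries alone gave 1617, DESeq2 274 and no filter on low values 183. Against 136 calls by the study's rule, limma-voom gave 274, edgeR 284 and a pseudocount of 0.1 gave 286. With 1 library left out, calls by adjusted p ran from 97 to 1631 and calls by the study's rule from 136 to 225, and the lowest were 97 without MS- replicate 1 and 150 without MS- replicate 2. With 1 library left out a serum has 1 library, which is assumed to vary like the others. Of 271 results for single genes 0 reversed, which the choice of called rows also largely fixed. With 2 rats, and serum donors not numbered, counts of calls rest on few libraries. The cause of these shifts was not tested.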
